A study of Mus musculus with 2 samples.

Results

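Bone morphogenetic protein (BMP) ligands and antagonists were described in single cells of the mouse colon. The group held 8 genes of the 31053 in the count tables, chosen by symbol. The ligands were Bmp2 (ENSMUSG00000027358), Bmp4 (ENSMUSG00000021835), Bmp5 (ENSMUSG00000032179) and Bmp7 (ENSMUSG00000008999). The secreted antagonists were Grem1 (ENSMUSG00000074934), Nog (ENSMUSG00000048616), Chrdl1 (ENSMUSG00000031283) and Fst (ENSMUSG00000021765). Colons of wild-type C57BL/6 mice given Δ9-tetrahydrocannabinol (THC, the main psychoactive compound of cannabis) at 10 mg/kg gave 1 droplet 5′ library, and colons of wild-type C57BL/6 mice given vehicle gave the other. Both had been digested with EDTA and then with enzymes, and enriched for the lamina propria on Percoll. How many mice went into each, their sex, age and dosing schedule were not stated in the labels. With 1 library per group no test was possible, so every interval below covers counting error only and no p-value is given.

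BMPs are secreted dimers that bind type I and type II serine kinase receptors and act through SMAD proteins. In the intestine, fibroblasts close to the epithelium make BMPs that favour epithelial differentiation. Antagonists made by cells deeper in the wall and around the crypt base bind the ligands and keep BMP signalling low near the stem cells. Gremlin (Grem1), noggin (Nog) and the chordin-like protein Chrdl1 bind BMPs, while follistatin (Fst) binds activins most strongly and several BMPs as well.

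Barcodes were kept with at least 1000 UMIs (unique molecular identifiers, which count RNA molecules), at least 200 genes and under 10% mitochondrial UMIs. That left 395 THC cells with a median of 8529 UMIs and 628 vehicle cells with a median of 7101.5 UMIs, and the libraries shared 0 barcodes. The mitochondrial limit had removed 232 THC barcodes and 281 vehicle barcodes. The deposits differ: the THC matrix lists all 737280 barcodes, while the vehicle matrix lists 973, the lowest with 502 UMIs. Cells were clustered without BMP pathway genes and called "X-like" from canonical markers. Fibroblast-like cells numbered 90 in the THC library and 155 in the vehicle library, with median depths of 7744 and 7142 UMIs. They split into lamina propria (44 THC cells, 79 vehicle cells), telocyte-like (7 and 13), adventitial (15 and 39) and trophocyte-like cells (10 and 12), plus 2 unnamed clusters. One of these was led by the contractile genes Acta2 and Tagln (7 and 7 cells), the other by Ces1d and Cox8b (7 and 5 cells). Telocytes are subepithelial fibroblasts rich in Pdgfra, and trophocytes are Cd81-high fibroblasts described below the crypts. The lamina propria sub-clusters differed in markers, from 3 of 9 in the one led by Tcim and Cd36 to 8 of 9 in the one led by Mfge8 and Col6a5. Sub-cluster 12, led by Stmn2 and Tnfsf13b, held 5 of 9, without Adamdec1. Sub-cluster 3, led by Nme6 and Edil3 (9 THC and 11 vehicle cells), held 4 of 9, also without Adamdec1. The telocyte-like cluster held 9 of its 10 markers, Foxl1, Sox6 and Wnt5a among them. The trophocyte-like cluster held 5 of 8, and its defining marker Ackr4 averaged 43.0 CPM over both libraries, below the adventitial clusters, so that name is weak. Interstitial cell of Cajal-like cells (ICC-like; the pacemaker cells of gut muscle) numbered 11 and 10. Kit and Ano1 were each detected in 21 of these 21 cells. Smooth muscle-like cells numbered 42 and 54.

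Levels are given as UMIs per 1000000 UMIs of a cell class (CPM), pooled over its cells. Free RNA sets the floor for them. In 105814 THC barcodes under 100 UMIs, the members ran from 0 CPM (Bmp7) to 17.1 CPM (Bmp2). In B-like and T- or innate lymphoid-like cells, which should lack them, Bmp2 had 25.3 CPM in 64 THC cells and 2.62 CPM in 109 vehicle cells. Bmp7 had 1 UMI in the THC lymphocytes and 2 UMIs in the vehicle lymphocytes, and the other 6 members had none, at median depths of 3170 and 3216 UMIs. Bmp2 levels at or below those of lymphocytes in the same library are not told apart from background by this measure.

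**Figure D1:**
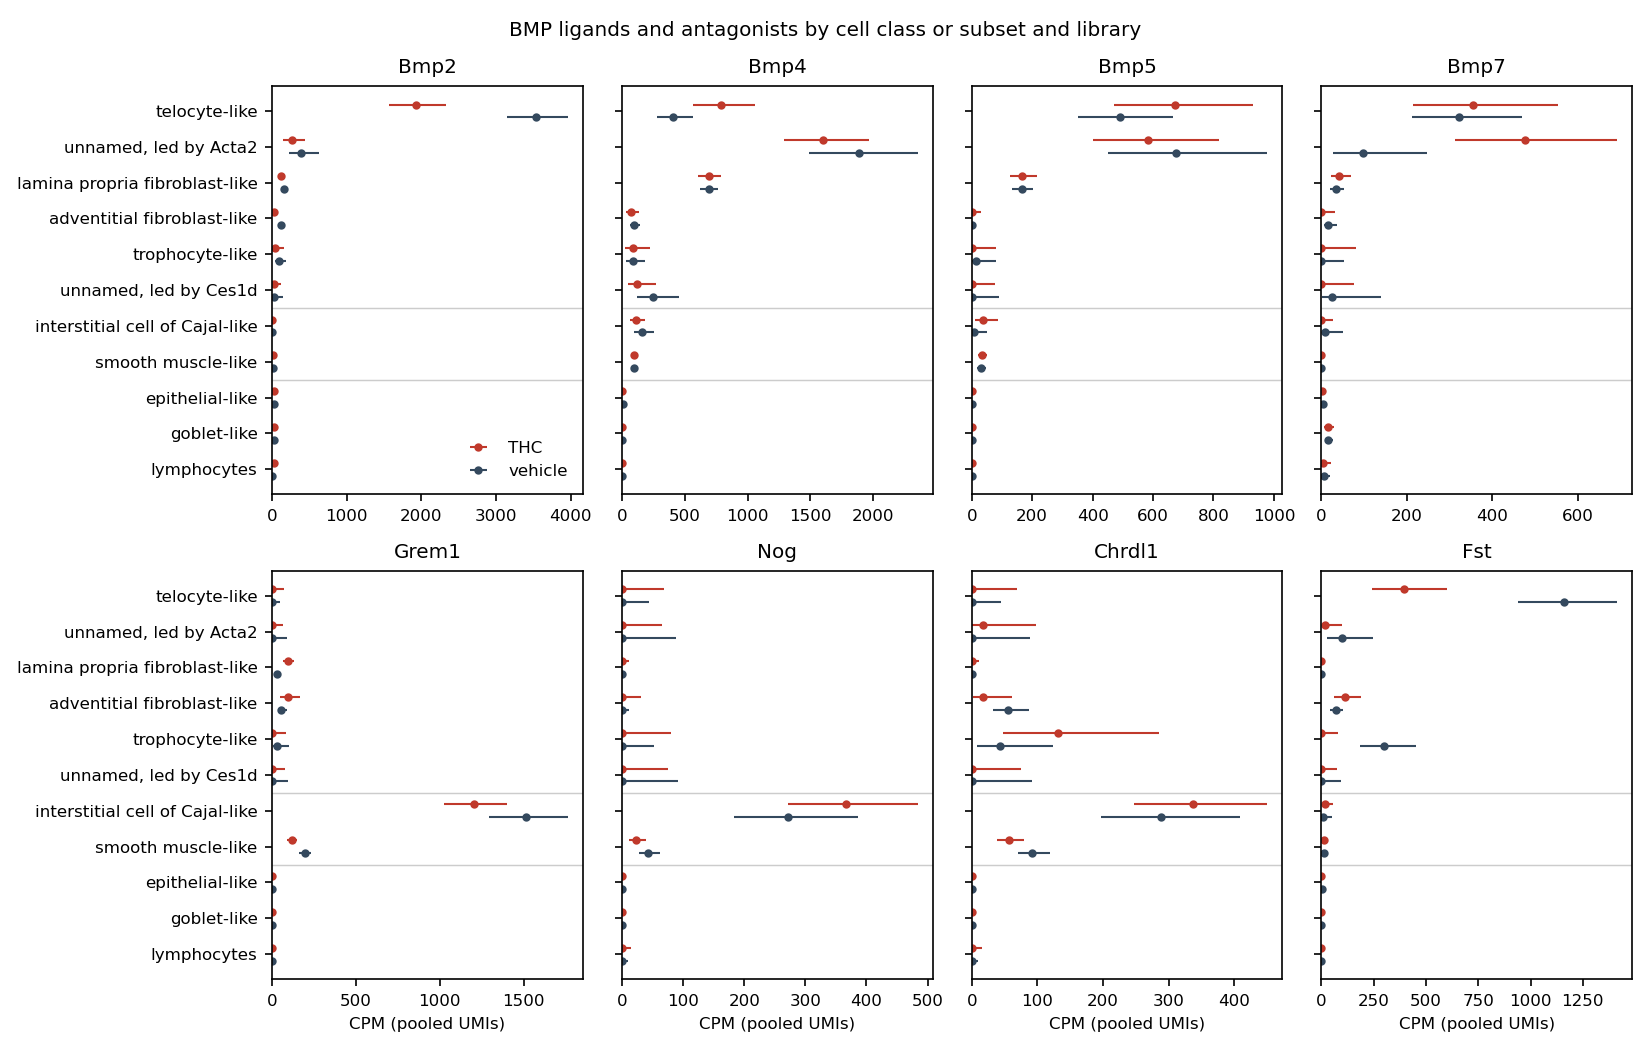
Level of the 8 members (1 panel each, pooled CPM on a linear axis that differs between panels) in each stromal subset and other class, THC above vehicle, with exact Poisson 95% intervals as bars. The ligands and Fst are highest in telocyte-like or Acta2-led cells, while Grem1, Nog and Chrdl1 are highest in ICC-like cells.

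Bmp2, a ligand known for its role in differentiation of the upper crypt, was concentrated in the telocyte-like cells. It had 1925 CPM in THC telocyte-like cells (95% interval 1571.5 to 2335) against 3539 CPM in vehicle telocyte-like cells (3147 to 3966). Every cell of the subset held Bmp2, with a lowest, median and highest count of 1, 10 and 38 UMIs in the THC library and 1, 11 and 80 UMIs in the vehicle library. Its next level was in the Acta2-led cells, at 264 CPM (THC) and 387 CPM (vehicle), and then in lamina propria cells, at 116 CPM (THC) and 152 CPM (vehicle). Within the lamina propria, its level was highest in the sub-cluster led by Tcim and Cd36, with 223 CPM (16 of 40 UMIs) in the THC library and 334 CPM (55 of 87 UMIs) in the vehicle library. ICC-like cells had 0 UMIs in both libraries, where a floor of 3 UMIs is 22.0 CPM (THC) and 27.1 CPM (vehicle). Epithelial-like cells had 25.2 CPM in the THC library and 29.8 CPM in the vehicle library. Goblet-like cells, the mucus-secreting cells, were at 26.0 CPM and 29.1 CPM. In the THC library these lie at the lymphocyte level. In the vehicle library they lie above it, but 46.0% of the vehicle epithelial-like UMIs were in 1 cell. Of the 104 vehicle epithelial-like cells, 1 held a UMI of all 4 ligands, and 1 held an antagonist. All 3 Bmp5 UMIs of these cells lay in 1 cell, as did all 5 Fst UMIs. Whether such a barcode held more than 1 cell was not tested. The 44 THC epithelial-like UMIs lay in 23 of 86 cells, with 11.4% in the richest. These 86 cells held 0 UMIs of Bmp4 and Grem1, which had 8.56 CPM and 15.9 CPM in THC barcodes under 100 UMIs. Whether the Bmp2 of THC epithelial-like cells was free RNA was not tested.

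Bmp4 was spread over more of the stroma than Bmp2. It was highest in the Acta2-led cells, at 1604 CPM (1292 to 1970) in the THC library and 1886 CPM (1491 to 2354) in the vehicle library, where all 7 cells of each library held it. Lamina propria cells had 692 CPM in the THC library and 691 CPM in the vehicle library, a difference of 0.00 on the log2 scale (−0.24 to 0.24). Telocyte-like cells had 785 CPM (THC) and 406 CPM (vehicle), above the lamina propria level in the THC library and below it in the vehicle library. Bmp4 thus did not mark the same subset as Bmp2. Inside the lamina propria it ran from 336 CPM (THC) and 442 CPM (vehicle) in sub-cluster 10, led by Sox9 and Pgf, to 1326 CPM (THC) and 1128 CPM (vehicle) in sub-cluster 12, led by Stmn2 and Tnfsf13b. Adventitial cells had 68.3 CPM and 99.6 CPM, and trophocyte-like cells 87.5 CPM and 85.0 CPM. Of the smooth muscle-like cells, those led by Hhip and Actc1 had 318 CPM (THC) and 220 CPM (vehicle), against 49.1 CPM and 56.1 CPM in those led by Actg2 and Des.

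Bmp5 and Bmp7, which belong to the same branch of the ligand family, were shared by the telocyte-like and Acta2-led cells. Bmp5 had 673 CPM (THC) and 490.2 CPM (vehicle) in telocyte-like cells, and 582 CPM (THC) and 677 CPM (vehicle) in Acta2-led cells. Lamina propria cells held less, at 166 CPM and 165 CPM. Adventitial and trophocyte-like cells together held 0 UMIs in the THC library and 1 UMI in the vehicle library, although 76 cells were measured. Bmp7 had 355 CPM (THC) and 323 CPM (vehicle) in telocyte-like cells. In Acta2-led cells it had 476 CPM (27 UMIs, all 7 cells) in the THC library and 96.7 CPM (4 UMIs, 4 of 7 cells) in the vehicle library. Bmp7 was also seen at a low level outside the stroma: goblet-like cells had 14.9 CPM (8 UMIs) in the THC library and 15.1 CPM (13 UMIs) in the vehicle library. Bmp7 was absent from THC barcodes under 100 UMIs, and smooth muscle-like cells had 0 UMIs of it in both libraries.

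Grem1, a BMP antagonist of the gut muscle layers and of fibroblasts at the crypt base, was highest in ICC-like cells. It had 1204 CPM (164 UMIs; 1027 to 1403) in THC ICC-like cells and 1517 CPM (168 UMIs; 1296 to 1764) in vehicle ICC-like cells. The counts were uneven: 8 of 11 THC cells and 6 of 10 vehicle cells held Grem1, and a single vehicle cell held 88 UMIs, or 52.4% of that group. Smooth muscle-like cells had 118 CPM in the THC library and 195 CPM in the vehicle library. In adventitial cells Grem1 lay in the cluster led by Ptn and Inmt, at 304 CPM (11 UMIs in 2 of 4 cells, 8 of them in 1 cell) in the THC library and 151 CPM (17 UMIs in 3 of 15 cells) in the vehicle library. Lamina propria cells had 93.1 CPM (32 UMIs) and 26.1 CPM (15 UMIs). All 15 vehicle UMIs lay in the sub-cluster led by Stmn2. The THC UMIs were split over 3 sub-clusters, 12 of them in 1 cell. Telocyte-like and Acta2-led cells, the richest in ligands, held 0 UMIs of Grem1 in both libraries.

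The RefSeq promoter table (GRCm38.p6; 250 bases before to 50 after each start) held 3 of the 8 members. They are printed because only they had an entry. Bmp4 and Bmp5 lay mostly in fibroblast-like cells and Grem1 mostly in ICC-like and smooth muscle-like cells. Each is shown 5′ to 3′ on the strand of the gene, with capitals for matches to GGCGCC (a GC-rich motif that BMP SMADs bind), CCAAT or TATAAA on either strand.
Grem1, chr2:113758599-113758898, minus strand: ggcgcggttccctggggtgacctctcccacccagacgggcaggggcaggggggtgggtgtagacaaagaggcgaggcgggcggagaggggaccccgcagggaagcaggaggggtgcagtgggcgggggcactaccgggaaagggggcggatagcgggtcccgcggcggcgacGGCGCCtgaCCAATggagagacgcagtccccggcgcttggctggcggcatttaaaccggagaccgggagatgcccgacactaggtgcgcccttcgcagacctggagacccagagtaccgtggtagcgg
Bmp4, chr14:46390620-46390919, minus strand: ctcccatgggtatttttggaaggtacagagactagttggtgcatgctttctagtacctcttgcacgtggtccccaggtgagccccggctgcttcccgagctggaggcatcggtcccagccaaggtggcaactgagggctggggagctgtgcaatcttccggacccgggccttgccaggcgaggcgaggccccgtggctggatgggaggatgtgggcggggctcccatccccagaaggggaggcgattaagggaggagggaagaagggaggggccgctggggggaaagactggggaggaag
Bmp5, chr9:75775115-75775414, plus strand: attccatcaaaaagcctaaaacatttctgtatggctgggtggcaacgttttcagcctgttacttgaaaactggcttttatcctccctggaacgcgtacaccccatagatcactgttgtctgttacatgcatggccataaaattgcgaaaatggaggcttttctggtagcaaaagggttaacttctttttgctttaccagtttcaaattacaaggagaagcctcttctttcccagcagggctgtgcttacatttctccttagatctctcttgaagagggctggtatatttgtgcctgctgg
The GC content was 70.7% for Grem1, 64.0% for Bmp4 and 43.3% for Bmp5, where the median of all 32851 promoters was 52.7%. The Grem1 window held GGCGCC at −78 and CCAAT at −69 from the start, not overlapping. The Bmp4 and Bmp5 windows held none of the 3 motifs. Of all promoters, 11.9% held GGCGCC, 37.4% held CCAAT and 13.6% held TATAAA, so these matches are a description of letters and not of binding. Bmp2, Bmp7, Nog, Chrdl1 and Fst had no entry.

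Nog, which encodes the BMP-binding protein noggin, was found in ICC-like and smooth muscle-like cells and in no other class. It had 367 CPM (50 UMIs in 9 of 11 cells) in THC ICC-like cells and 271 CPM (30 UMIs in 6 of 10 cells) in vehicle ICC-like cells. Smooth muscle-like cells had 22.8 CPM (13 UMIs) in the THC library and 42.8 CPM (27 UMIs) in the vehicle library, with 12 and 24 of these UMIs in the cells led by Actg2 and Des. Fibroblast-like cells had 0 UMIs, where a floor of 3 UMIs is 4.51 CPM (THC) and 2.68 CPM (vehicle).

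Chrdl1 followed the same order in muscle. It had 338 CPM in THC ICC-like cells and 289 CPM in vehicle ICC-like cells, and 56.2 CPM (THC) and 91.9 CPM (vehicle) in smooth muscle-like cells. Unlike Nog it was also found in fibroblast-like cells, but almost only in the adventitial and trophocyte-like ones, with 8 of 9 UMIs in the THC library and 20 of 20 in the vehicle library. Lamina propria and telocyte-like cells held 0 UMIs in both libraries.

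Fst was the only one of the 4 antagonists with UMIs in telocyte-like cells. It had 393 CPM (21 UMIs) in THC telocyte-like cells and 1159.7 CPM (97 UMIs) in vehicle telocyte-like cells, in 3 of 7 and 9 of 13 cells. One THC cell held 76.2% of the THC UMIs. Adventitial cells had 111 CPM in the THC library and 67.5 CPM in the vehicle library. Trophocyte-like cells had 0 UMIs in the THC library, where a floor of 3 UMIs is 65.6 CPM, and 297 CPM (21 UMIs in 3 of 12 cells) in the vehicle library. Lamina propria cells had 0 UMIs in both libraries, although they lie in the same fibroblast-like class.

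Most UMIs of Bmp4 and Bmp5 and most UMIs of Grem1 and Nog lay in different classes. Fibroblast-like cells held 82.4% of all Bmp4 UMIs in the THC library and 83.7% in the vehicle library, and 84.0% and 86.8% of all Bmp5 UMIs. ICC-like cells held 59.9% (THC) and 50.3% (vehicle) of Grem1 UMIs, and 79.4% and 52.6% of Nog UMIs. In single cells, 5 of 7 THC telocyte-like cells and 7 of 13 vehicle telocyte-like cells held a UMI of all 4 ligands. Of the ICC-like cells, 8 of 11 (THC) and 5 of 10 (vehicle) held 3 antagonists together. The same cells were not free of ligands: 8 of 11 (THC) and 7 of 10 (vehicle) ICC-like cells held at least 1 ligand, and 9 of 11 and 9 of 10 held an antagonist. Smooth muscle-like cells held a ligand in 31 of 42 (THC) and 34 of 54 (vehicle) cells, and an antagonist in 27 of 42 and 36 of 54. Of lamina propria cells, 42 of 44 (THC) and 78 of 79 (vehicle) held at least 1 ligand, and 8 of 44 and 8 of 79 held an antagonist.

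**Figure D2:**
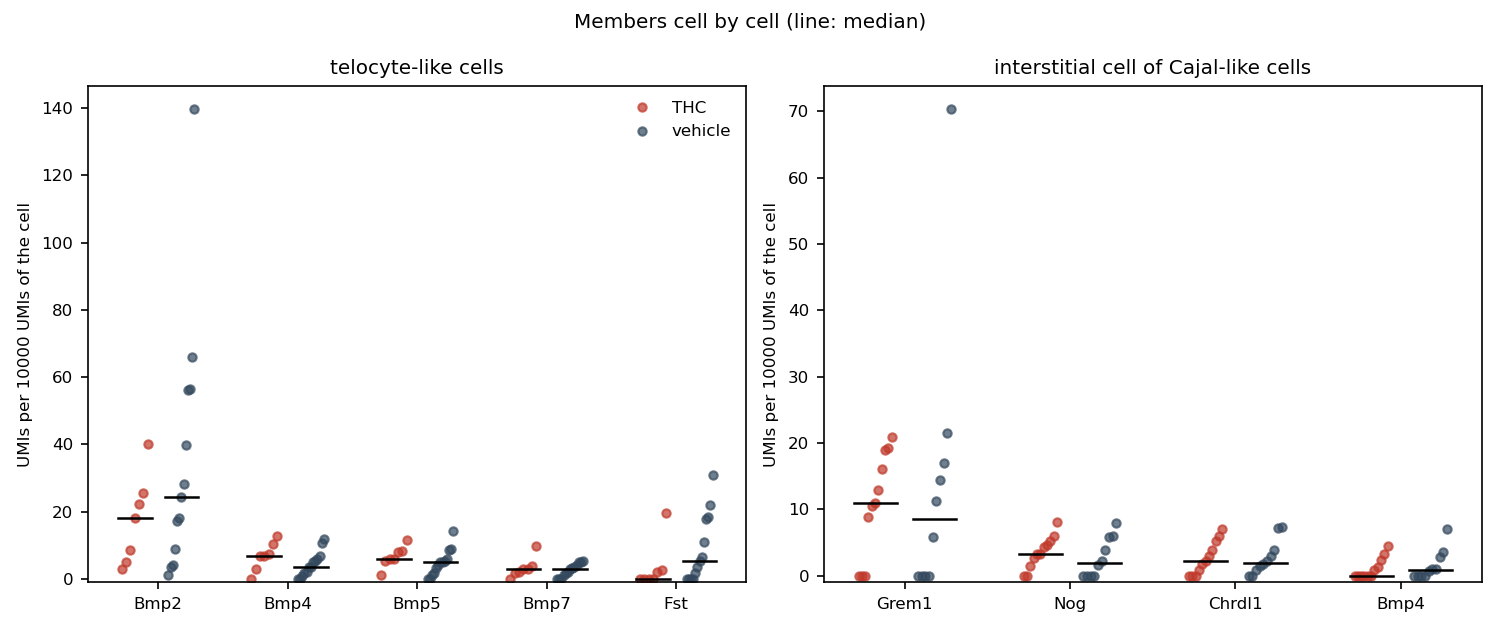
UMIs of each member per 10000 UMIs of the cell in telocyte-like cells (left) and ICC-like cells (right), 1 point per cell, THC left of vehicle, with a line at the median. Bmp2 is above 0 in every telocyte-like cell, and in ICC-like cells 8 of 11 THC and 6 of 10 vehicle points of Grem1 are above 0.

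Telocyte-like cells were next set against all other fibroblast-like cells, 20 cells against 225 over both libraries. A gene was counted as past 2-fold when its log2 ratio of CPM was at least 1 in size, its interval left out 0 and it had at least 10 UMIs. Over all genes 10.6% were past 2-fold in either direction, 5.75% higher and 4.82% lower. Of the 8 members 7 were measured and 5 were past 2-fold, 4 higher and 1 lower. The median log2 ratio of the 6 with a ratio, Grem1 at its bound, was 2.55, where that of all genes was −0.06. Chrdl1, with 0 UMIs against 29, had no ratio, and counted at any value under its upper limit of 0.71 it puts the median at 2.11. Bmp2 had 2909 CPM in telocyte-like cells and 126 CPM in the others, a log2 ratio of 4.53 (4.28 to 4.78). Within libraries the ratio was 4.27 (THC) and 4.64 (vehicle). Fst had a log2 ratio of 4.56 (4.10 to 5.04), Bmp7 of 2.98 (2.41 to 3.54) and Bmp5 of 2.11 (1.72 to 2.50). Bmp4 did not differ beyond its interval, at 0.07 (−0.28 to 0.41). Grem1 had 0 UMIs in telocyte-like cells and 77 in the others, and at a floor of 3 UMIs it was at least 2.13-fold lower. That bound fell short of 2-fold without the cell richest in Grem1, and under a 5% mitochondrial limit. Bmp2 and Fst were among the leading genes of this cluster although they took no part in forming it.

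The Acta2-led cells had less Bmp2 and Fst and more Bmp4 than the telocyte-like cells. This cluster held Pdgfra at 1234 CPM and Foxl1 at 71.4 CPM over both libraries, and smooth muscle genes led it, so it was left unnamed. Over telocyte-like cells its log2 ratio was −3.20 (−3.78 to −2.67) for Bmp2, −4.08 (−5.73 to −2.81) for Fst and 1.64 (1.24 to 2.05) for Bmp4, each past 2-fold, where 23.8% of all genes were, 15.8% higher and 8.02% lower. Bmp5 was at 0.15 (−0.36 to 0.65) and Bmp7 at −0.09 (−0.79 to 0.60), where the median of all genes was 0.48. By library, Bmp7 was at 0.42 (−0.48 to 1.35) in the THC library and −1.74 (−3.71 to −0.22) in the vehicle library.

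In adventitial and trophocyte-like cells together, 76 cells over both libraries, all 4 ligands were lower than in the 169 other fibroblast-like cells. Bmp4 had 89.95 CPM against 721 CPM, a log2 ratio of −3.00 (−3.45 to −2.59). Bmp2 was at −2.35 (−2.81 to −1.93), Bmp7 at −3.28 (−4.93 to −2.02) and Bmp5, with 1 UMI against 290, at −6.99 (−12.30 to −4.50). Chrdl1, with 28 UMIs against 1, was higher at 6.00 (3.40 to 11.35). Of 7 measured members 5 were past 2-fold, 1 higher and 4 lower, where 15.3% of all genes were, 5.8% higher and 9.54% lower. Fst was at 0.03 (−0.46 to 0.50). Grem1 was at 0.54 (−0.17 to 1.23), and its direction depended on how the subsets were drawn: it ran from −2.17 to 1.69 over the alternatives, so no direction is given for it.

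ICC-like cells exceeded smooth muscle-like cells in 3 antagonists. Over both libraries Grem1 had 1344 CPM against 158 CPM, a log2 ratio of 3.09 (2.82 to 3.35). Nog was at 3.28 (2.72 to 3.87) and Chrdl1 at 2.07 (1.62 to 2.53), and the 3 ratios were 3.35, 4.01 and 2.59 within the THC library and 2.96, 2.66 and 1.65 within the vehicle library. Of all genes 14.7% were past 2-fold, 11.6% higher and 3.05% lower, with a median log2 ratio of 0.33. Over fibroblast-like cells, 3 members were past 2-fold higher and 5 lower, where 24.8% of all genes were past 2-fold, 16.4% higher and 8.34% lower. The median of all genes in that comparison was 0.34. Grem1 was at 4.96 (4.60 to 5.34), Chrdl1 at 4.28 (3.65 to 4.95), and Nog, with 80 UMIs against 0, at a bound of at least 7.59 on the log2 scale. The ligands were lower there, Bmp4 at −1.98 (−2.53 to −1.48) and Bmp5 at −2.74 (−4.20 to −1.61). With each cell put in the class of its highest mean marker level, Bmp2 (0.061) and Fst (0.016) were not lower there and Bmp5 was at −0.81. Bmp5 was at −0.33 with cells thinned to 1000 UMIs.

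**Figure D3:**
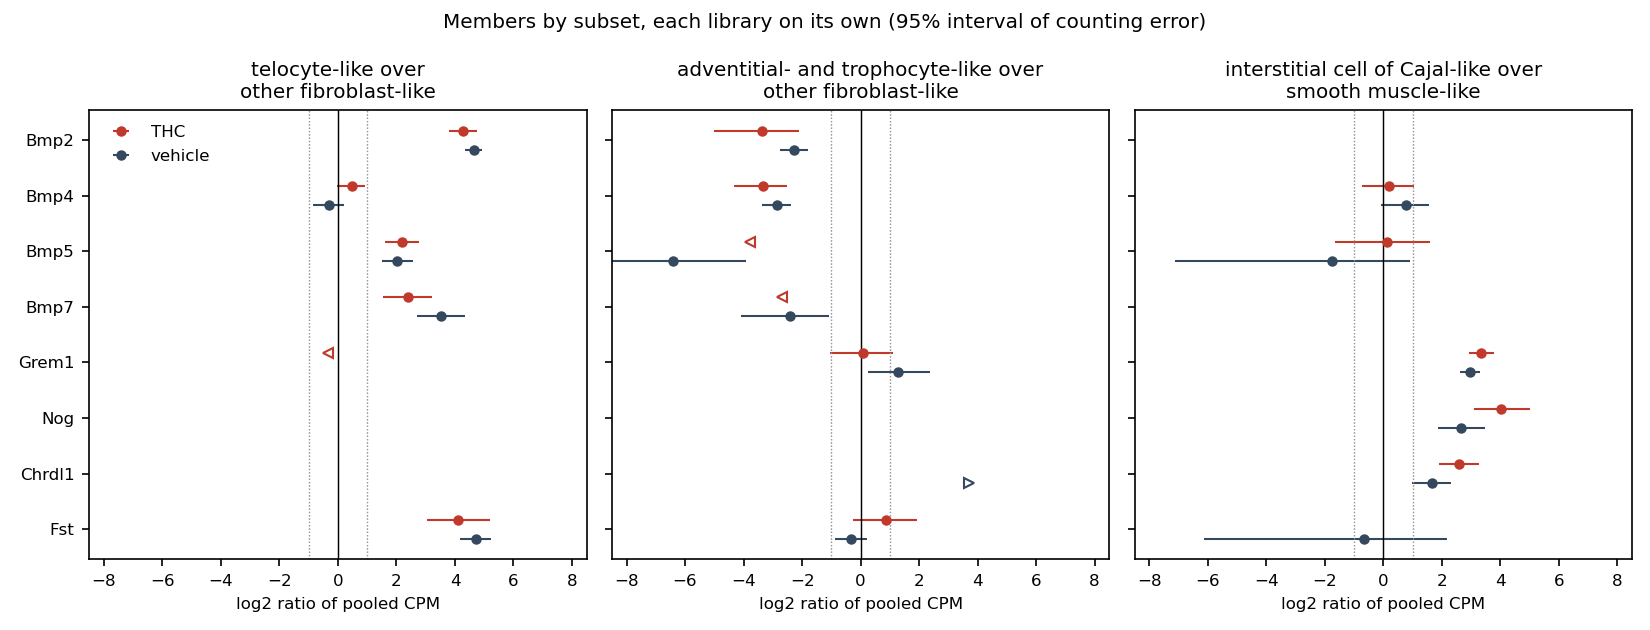
Log2 ratio of pooled CPM for each member within each library (THC above vehicle): telocyte-like over other fibroblast-like, adventitial with trophocyte-like over other fibroblast-like, and ICC-like over smooth muscle-like cells. Bars are 95% counting intervals, open triangles bounds from a floor of 3 UMIs, dotted lines 2-fold; members under 10 UMIs are not drawn and the vehicle interval of Bmp5 in the middle panel runs past the axis. Bmp2, Bmp5, Bmp7 and Fst lie above 0 in telocyte-like cells and the 4 ligands below 0 in the middle panel, in both libraries.

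The study set THC against vehicle, and for the members this is a comparison of 1 library with 1 library. Values without a unit are log2 ratios of CPM, with 95% counting intervals. In fibroblast-like cells 2 of 7 measured members were past 2-fold, 1 higher and 1 lower, where 2.92% of all genes were, 1.37% higher and 1.55% lower. Fst had 52.6 CPM (35 UMIs, 9 of 90 cells) in the THC library and 128 CPM (143 UMIs, 26 of 155 cells) in the vehicle library, which is a log2 ratio of −1.28 (−1.86 to −0.74). Grem1 had 64.6 CPM (43 UMIs, 10 cells) in the THC library and 30.3 CPM (34 UMIs, 12 cells) in the vehicle library, which is a log2 ratio of 1.09 (0.41 to 1.78). The Grem1 call did not hold with every cell weighted equally (0.80), with cells thinned to 1000 UMIs (0.52) or with coarser subsets (0.95). Bmp2 had 246 CPM (THC) and 395 CPM (vehicle), at −0.68 (−0.95 to −0.42). Its cells with a UMI were 36.7% of THC and 50.3% of vehicle cells, and 14.4% and 17.4% after thinning to 1000 UMIs. Bmp4 was at 0.24 (0.05 to 0.43), Bmp5 at 0.36 (0.02 to 0.71) and Bmp7 at 0.85 (0.30 to 1.40), with no call at 2-fold. With cells thinned to 1000 UMIs Bmp5 turned to −0.80 (−1.93 to 0.22). Chrdl1 had 9 UMIs against 20, at −0.40 (−1.72 to 0.80), and Nog had none.

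Each subset was then compared between the libraries. Telocyte-like cells made up 7 of 90 THC cells and 13 of 155 vehicle cells. Within them Fst was lower at −1.56 (−2.32 to −0.87), where 7.1% of all genes were past 2-fold and 3.82% lower, and without the richest cell of each library the ratio was −3.24. Bmp2 was at −0.88 (−1.22 to −0.55) and Bmp4 at 0.95 (0.26 to 1.65). In lamina propria cells Grem1 was at 1.83 (0.91 to 2.82), where 3.04% of all genes were past 2-fold and 1.71% higher, while Bmp4 and Bmp5 were level. In adventitial and trophocyte-like cells Bmp2, with 5 UMIs in the THC library and 43 in the vehicle library, was lower at −1.87 (−3.57 to −0.54), where 3.63% of all genes were past 2-fold and 1.87% lower. In Acta2-led cells Bmp7 was higher at 2.30 (0.78 to 4.27), where 6.8% of all genes were past 2-fold and 3.18% higher. After thinning to 1000 UMIs the calls for Fst, Grem1 and Bmp2 were lost, with ratios of −2.28, 1.43 and −2.14, and under a 5% mitochondrial limit Bmp2 was at −0.98. These subsets hold 7 to 79 cells per library, and cells of 1 library are not replicates.

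In the muscle classes no member was past 2-fold between the libraries as analysed. Smooth muscle-like cells had lower Grem1 in the THC library, at −0.73 (−1.18 to −0.29), and lower Chrdl1, at −0.71 (−1.38 to −0.06), and Nog was at −0.91 (−1.98 to 0.10). With every cell weighted equally Grem1 (−1.12) and Nog (−1.14) were past 2-fold there, as were Grem1 under a 5% mitochondrial limit (−1.34) and Nog with at least 2500 UMIs per cell (−1.80), but with that minimum in the THC library alone Nog was at 0.22. The median of all genes in this class was −0.11, and 3.79% were past 2-fold. In ICC-like cells, where 3.94% were, Grem1 was at −0.33 (−0.65 to −0.01). It turned to 0.43 without the richest cell of each library and was past 2-fold at −1.14 under a 5% mitochondrial limit. Nog was at 0.44 (−0.24 to 1.14) and Chrdl1 at 0.22 (−0.46 to 0.92). In epithelial-like cells Bmp2 was at −0.24 (−0.86 to 0.37). Bmp4 had 0 UMIs in the THC library and 12 in the vehicle library, at least 4.16-fold lower, but these lay in 2 vehicle cells, the call was lost without the richest, and 4.16% of all genes were past 2-fold there, 3.02% lower.

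**Figure D4:**
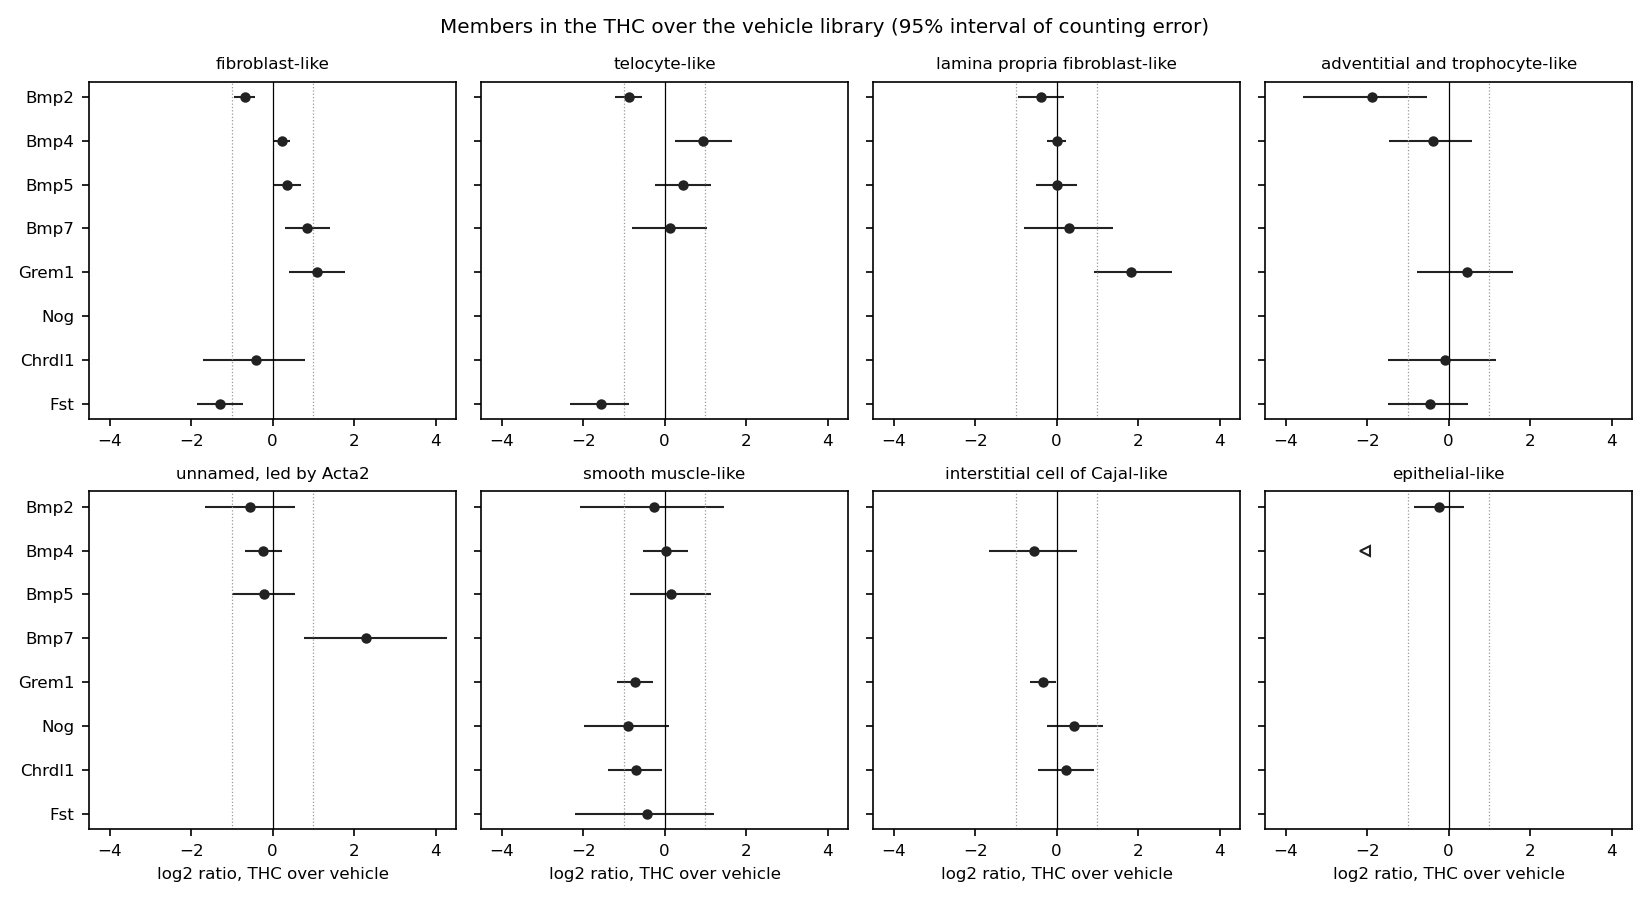
Log2 ratio of CPM, THC over vehicle, for each member in the stromal, muscle and epithelial-like classes (bars are 95% counting intervals, the open triangle is a bound from a floor of 3 UMIs, dotted lines are 2-fold; members under 10 UMIs are not drawn). Fst lies below −1 in fibroblast-like and telocyte-like cells, and Grem1 is above 1 in fibroblast-like and lamina propria cells and below 0 in smooth muscle-like cells.

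The rest of the BMP pathway, 62 genes in 6 lists, gives the setting of these ligands. In fibroblast-like cells 45 of the 62 were measured and 0 were past 2-fold between THC and vehicle, with a median log2 ratio of 0.04 where all genes had 0.02. Of the other ligands, Bmp6 was at 0.42 (−0.160 to 1.002) and Gdf10 at 0.48 (−0.36 to 1.31). Of the secreted modulators, the BMP antagonist Nbl1 had 1268 CPM (THC) and 777 CPM (vehicle), at 0.71 (0.57 to 0.85), while the serine protease Htra3 was at −0.04. Fstl1, a follistatin-like protein, was at −0.18 and Htra1 at 0.10. Of the proteases that cleave BMP precursors or their antagonists, Pcsk5 was at −0.40, Furin at −0.76 (−1.79 to 0.19) and Bmp1 at −0.02. The receptors Acvrl1 and Bmpr2 were at −0.23 and −0.11, and the co-receptors Tgfbr3 and Eng at −0.01 and 0.03. The signal transducers Smad1, Smad5 and Smad4 were at −0.44, 0.35 and −0.17, and the inhibitory Smad7 at 0.35. Of the targets of BMP signalling, Id3 had 3116 CPM (THC) and 2980.3 CPM (vehicle), at 0.06 (−0.02 to 0.14). Id1 was at 0.09, Runx1 at 0.22 and Id2 at 0.53 (0.22 to 0.84).

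More pathway genes were past 2-fold between subsets than between libraries, as held for all genes. In telocyte-like cells over the other fibroblast-like cells 16 of 45 were past 2-fold, 10 higher and 6 lower, where 10.6% of all genes were, 5.75% higher and 4.82% lower. Of the 9 targets measured 3 were higher and 0 lower. Id1, a direct target of BMP SMADs, had 802 CPM against 129 CPM, at 2.64 (2.29 to 2.97), and Id3 was at 1.004 (0.893 to 1.114). Twsg1, an extracellular BMP modulator, was higher at 1.407 (1.003 to 1.793) and Nbl1 at 1.18 (0.99 to 1.37), while Htra3 was lower at −3.13 (−3.91 to −2.45) and Bmp1, which cleaves chordin, lower at −2.91 (−5.20 to −1.35). Adventitial and trophocyte-like cells, low in the 4 ligands, were also low in targets: 6 of 9 were lower and 0 higher, where 9.54% of all genes were lower and 5.8% higher, with Id1 at −3.94 (−5.08 to −2.99) and Runx1 at −2.95 (−4.61 to −1.67). In ICC-like cells over smooth muscle-like cells 5 of 7 targets were higher and 0 lower, where 11.6% of all genes were higher and 3.05% lower, with Id1 at 3.96 (3.65 to 4.28). Id1 was thus high in telocyte-like cells, rich in ligands, and in ICC-like cells, rich in antagonists. It had 1747 CPM (THC) and 1002 CPM (vehicle) in ICC-like cells and 822 CPM and 789 CPM in telocyte-like cells. In Acta2-led over telocyte-like cells, 0 of 4 measured targets were higher and 1 lower. Of all genes, 15.8% were higher and 8.02% lower there. Whether ligand levels bear on target levels was not tested.

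**Figure D5:**
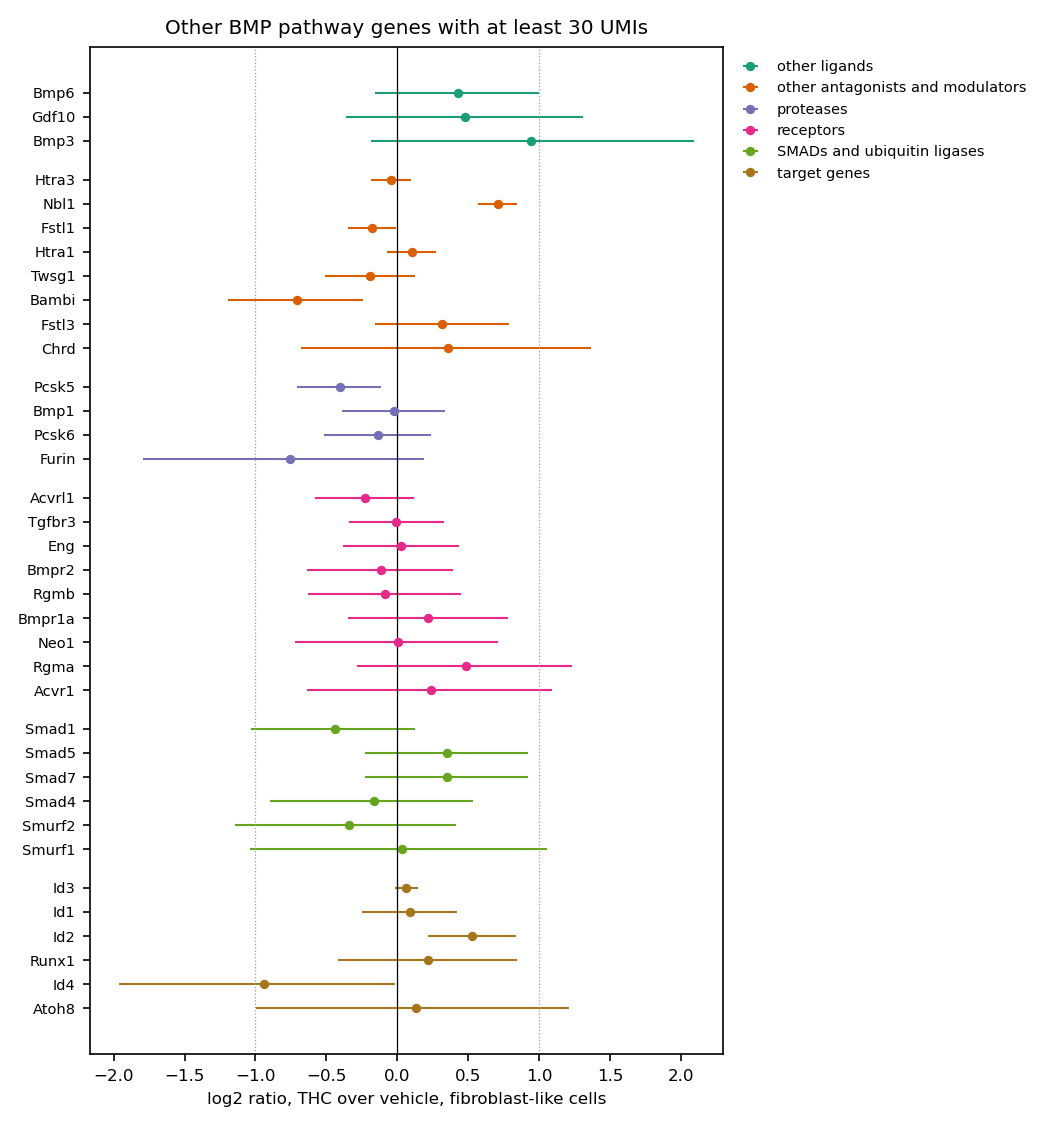
Log2 ratio of pooled CPM, THC over vehicle in fibroblast-like cells, for the other BMP pathway genes with at least 30 UMIs, coloured by list (points with 95% counting intervals, dotted lines 2-fold). No gene is past 2-fold, and Nbl1 lies at 0.71.

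Genes with the pattern most like each member were found by Pearson correlation of log2(CPM + 10) over 14 points, 7 classes in each of 2 libraries with at least 20 cells, among 9206 genes. The lamina propria cells are a subset of 1 other class, and points of a library share its depth, so r is a description only. Bmp4 was most like Col6a2, Crispld2 and Loxl1 (r of 0.998 to 0.999), and Bmp5 was most like Sod3, Col5a1 and Zfp385a (0.998 to 0.999). Bmp2 was most like Ext1 (0.931), Lgals3bp and Epas1, and Bmp7 most like Ext1 (0.928), Rnf19b and B3gnt9. Grem1 was most like Adcy5 (0.996), Mab21l2 and Gjc1. Nog was most like Actc1 (0.999), Tacr2 and Ctxn3, Chrdl1 most like Adam33 (0.984), Gas1 and Itga9, and Fst most like Lrrn4cl (0.954), Rnd1 and Sfrp4. Among these classes Nog had UMIs only in smooth muscle-like cells, so its r describes that class against the rest. Within that class most Nog UMIs lay in the cells led by Actg2 and Des, while Actc1 was a leading gene of the other cluster. Telocyte-like and ICC-like cells were too few to be points of their own. The telocyte-like cells are part of the fibroblast-like points. Over both libraries they held 399 of the 607 Bmp2 UMIs and 118 of the 178 Fst UMIs of that class.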

How the data were processed

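Colon cells of 1 THC and 1 vehicle library were analysed, grouped by the treatment in the labels. The deposited matrices hold raw UMI counts per gene and barcode, which the authors made with Cell Ranger 3.0.2, per the file headers. Per the submitters' processing notes, bcl2fastq and Seurat were also used. The genome build was not given in the sources used here. Kept cells held 4407754 UMIs (THC) and 5663636 UMIs (vehicle).

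Barcodes with at least 1000 UMIs, at least 200 genes and under 10% mitochondrial UMIs were kept, and scrublet removed 1 THC and 2 vehicle doublets. Cells were clustered with scanpy 1.11.5 (2000 variable genes without BMP pathway genes, 30 components, Leiden resolution 1.0, giving 22 clusters). Stromal cells were clustered again (15 components, resolution 1.5, 13 clusters). A cluster was named from at least 3 detected markers that were higher in it. The members, marker and pathway lists were chosen with earlier results of these data known. The naming rule and the resolution of the subsets were chosen after seeing the data.

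UMIs were pooled per class and library as CPM with exact Poisson intervals. Shares of cells carry exact Clopper-Pearson binomial intervals in the tables. Ratios carry exact conditional Poisson intervals at 95% (scipy 1.17.1, numpy 2.4.6, pandas 2.3.3, Python 3.11.15). Against 0 UMIs, a floor of 3 UMIs over the group gave a bound. That bound is larger in size than the limit of the exact 95% interval, so it is a value at the floor and not a minimum. No bound is given where the floor would turn the direction. The ratio script was tested on simulated data. Named besides the members were up to 4 genes of each pathway list by level in fibroblast-like cells and the 3 genes most like each member. Pathway genes named in the comparisons of subsets that fall outside this rule, such as Twsg1, were chosen after their values were seen. Of 12 alternatives, the effect is given below.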

Additional observations from a re-analysis of the deposited data

How the results depend on the processing

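No paired analysis was possible because each group is 1 library, and for the same reason no replicate could be left out. The counts of members past 2-fold and the log2 ratios were recomputed under 12 alternatives for the 3 main comparisons and, as a choice made after seeing the data, for 8 more: both of ICC-like cells and THC against vehicle within 6 classes. The Acta2-led and pathway ratios were not recomputed. The count between THC and vehicle in fibroblast-like cells, 2 in the main run, was 1 (1 lower) with coarser subsets and 1 (1 lower) with cells thinned to 1000 UMIs. With every cell weighted equally it stayed 2, but both were lower: Bmp2 at −1.09 and Fst. The count for adventitial and trophocyte-like cells, 5 in the main run, was 3 (3 lower) with thinned cells. The count for telocyte-like cells, 5 in the main run, ran from 4 to 6. With coarser subsets Bmp4 was past 2-fold there, at 1.29. With cells classed by markers alone, the count was 8 (main 3) for ICC-like over smooth muscle-like cells and 4 (main 8) over fibroblast-like cells, where Bmp2 (0.061) and Fst (0.016) turned. Thinning also gave 4 there. Between THC and vehicle in telocyte-like cells (main 1) it was 0 with thinned cells and 2 under 6 alternatives, and in lamina propria cells (main 1) it was 0 with thinned cells. In adventitial and trophocyte-like cells (main 1) it was 0 with thinned cells or a 5% mitochondrial limit and 3 with marker classes. In smooth muscle-like cells (main 0) it was 1 with at least 2500 UMIs or a 5% limit and 2 with equal weights, and in ICC-like cells (main 0) 1 with a 5% limit or marker classes. In epithelial-like cells (main 1) it was 0 with marker classes, thinned cells or without the richest cells, and 2 with BMP genes kept for clustering. Of 691 single-gene ratios under alternatives, 602 stayed inside the main interval, 87 moved outside it, and 2 called ratios, those of Bmp2 and Fst above, changed sign. Over the alternatives Bmp2 ran from 3.04 to 4.66 in telocyte-like cells, and Fst from −1.91 to −1.22 between THC and vehicle. The cause of these changes was not tested. Nog had no UMIs in the 3 main comparisons, Chrdl1 was too shallow for a bound in telocyte-like cells, and so was Grem1 there after thinning. The 2 libraries had passed different steps before deposit, and its effect on the ratios was not tested beyond a minimum of 2500 UMIs.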

Other observations

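Of the other pathway genes, some stood apart in the muscle classes; those named in this paragraph were chosen after their values were seen. Bmper, an extracellular BMP regulator, had 32 UMIs in ICC-like cells and 7 in smooth muscle-like cells, a log2 ratio of CPM of 4.47 (3.27 to 5.90) over both libraries. In smooth muscle-like cells 3 of 35 measured pathway genes were past 2-fold between THC and vehicle, where 3.79% of all genes were: Chrdl2, a chordin-like antagonist, with 34 UMIs in the THC library and 2 in the vehicle library (4.24; 2.27 to 7.34), the ligand Gdf5 (1.07; 0.20 to 1.98; 0.79 without the richest cell of each library) and the target Id4 (−1.38; −1.74 to −1.03). In lamina propria cells 1 of 40 was, where 3.04% of all genes were: the inhibitory Smad7, with 81.4 CPM in the THC library and 38.3 CPM in the vehicle library, at 1.09 (0.974 without the richest cell of each library).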
